A study of Homo sapiens with 2 samples.

Results

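The genes described here encode the nuclear pore, the importins and exportins that carry cargo through it, and the Ran cycle that gives transport its direction. They were chosen by gene symbol: every probe set with a single platform symbol that starts with NUP, IPO, XPO, KPNA or KPNB followed by a digit, together with a fixed set of symbols such as CSE1L, RANBP1, NDC1, POM121, SEH1L and TNPO3. The rule found 54 of the 14884 genes named on the array, read by 57 probe sets. Genes with more than 1 probe set were represented by the brightest on average. The level filter was set at the median of all probe sets, 3.70 on the log2 scale, and the 49 members whose mean reached it are called measured below. The symbols KPNA2, XPO1, RAN, RCC1, NUP62, AAAS and TPR had no named probe set and were not analysed here.

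RNA came from HT1080, an established human fibrosarcoma cell line, and was read on Affymetrix Human Gene 2.0 ST arrays, which sample each gene along its transcript. Cells that received a short hairpin RNA (shRNA) against cMyc provided 1 array, and cells that received a non-targeting shRNA provided the other. Both shRNAs were delivered by virus and both cultures were harvested 48 hours after infection, per the labels' protocols, although the study's design text speaks of transfection. The sources used here do not give the hairpin sequences or their number. No replicate exists for either condition, so nothing was tested, and every difference below describes these 2 arrays only. A difference is the log2 level on the cMyc shRNA array minus that on the control shRNA array. Genes were counted by size, at 2-fold and at 1.5-fold. The only repeat reading is between probe sets of 1 gene: over 416 genes with at least 2 measured probe sets, the technical SD of a single log2 difference was 0.34. Taken within the same 2 arrays, this SD leaves out the spread between cultures, infections and arrays.

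The nuclear pore is a ring-shaped channel through the nuclear envelope, built from many copies of proteins called nucleoporins. Importins bind cargo in the cytoplasm and exportins bind it in the nucleus, and the small GTPase Ran, loaded with GTP in the nucleus and emptied of it in the cytoplasm, tells each receptor where to let go. Growing and dividing cells need transport of ribosomal proteins, ribosomal subunits and newly made nuclear proteins, and dividing cells rebuild the pores after mitosis. MYC is a transcription factor that drives many genes of growth and proliferation.

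MYC read 6.16 on the cMyc shRNA array and 7.09 on the control array, a difference of -0.93 on its single probe set. A total of 8 of the 49 measured members lay lower than MYC itself. The nearest of them, NUP43, differed by -0.933 beside -0.932 for MYC, a gap far inside the technical SD. Of the 10258 measured genes, 480 lay lower than NUP43. The array medians were 3.73 for the cMyc shRNA and 3.68 for the control. Of 13 mesenchymal markers 7 were named on the array and 6 measured, among them FN1 at 12.6 and 12.4 and VIM at 9.34 and 9.94 on the cMyc shRNA and control arrays. Of the 9 epithelial markers named, 6 were measured, led by KRT18 (8.41 and 9.09) and CLDN3 (5.92 and 6.09), while EPCAM (3.07 and 2.73) was below the filter. Of 4 haematopoietic markers 2 were measured, CD68 (11.3 and 10.4) and CSF1R (5.34 and 6.15), and of 4 endothelial markers 1, ERG (4.15 and 4.14).

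Most transport genes read lower on the cMyc shRNA array, by modest amounts. Of the 49 measured members, 41 had a difference below 0, against 51.3% of all 10258 measured genes. The median difference was -0.44, or 1.36-fold lower, with quartiles of -0.76 and -0.16, while the median of all measured genes was -0.01. At least 1.5-fold lower were 19 members, or 38.8% of those measured, against 11.9% of all measured genes. At least 2-fold lower were 4 members, NDC1, XPO4, KPNA3 and RANBP1, against 3.997% of all measured genes. In the other direction 1 member, KPNA5, was at least 1.5-fold higher (8.77% of all measured genes were) and 0 were at least 2-fold higher (2.01% were). The 4 members past 2-fold were 8.16% of those measured. KPNA3 and RANBP1 lay just within 2-fold (both -0.99) after quantile normalization, which left 2 members past it. RANBP1 (-1.03) lay just inside the 2-fold limit and NUP35 (-0.98) just outside it. In bulk RNA, fewer cells of a kind and less RNA per cell cannot be told apart.

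**Figure D1:**
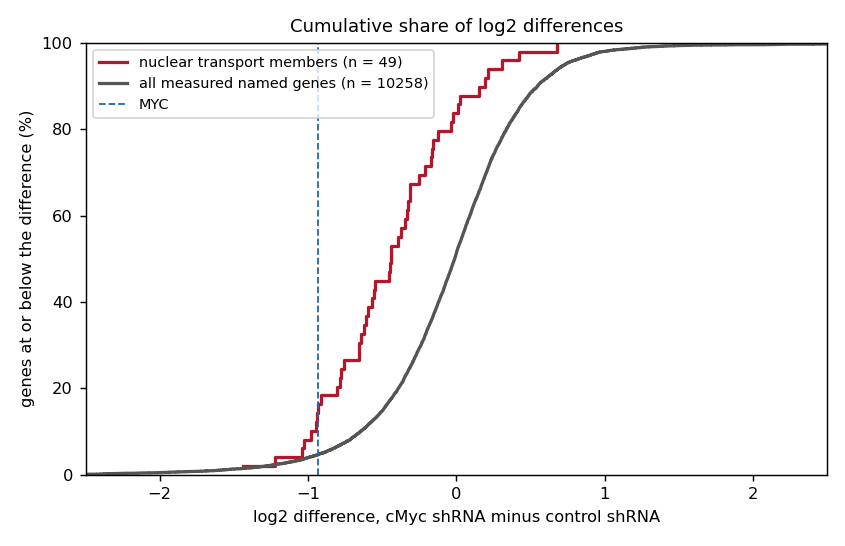
Cumulative share (%) of genes at or below each log2 difference (cMyc shRNA minus control shRNA) for the 49 measured members (red) and all 10258 measured named genes (grey), cut at 2.5 either way; the dashed line marks MYC at -0.93. The curve of the members runs to the left of that of all genes, with medians of -0.44 and -0.01.

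The pore is held in the envelope by a ring of membrane proteins, whose measured members pointed in opposite directions. NDC1, a membrane-spanning nucleoporin that anchors the pore, read 7.72 on the cMyc shRNA array and 9.16 on the control array. Its difference of -1.44 (2.71-fold lower) was the lowest of all members, and 150 of the 10258 measured genes lay lower still. POM121, the other measured membrane nucleoporin, read 7.19 and 6.76, a difference of 0.42 in the higher direction. Its probes can also read the near-identical copy POM121C, which had a difference of -0.15 on a probe set of its own. NUP210, the third membrane nucleoporin, was below the level filter at 3.26 and 3.13.

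All 5 members of the inner ring, the layer of scaffold that lines the channel and touches the membrane, were lower. NUP35, which links the inner ring to the membrane, read 4.41 on the cMyc shRNA array and 5.39 on the control array (1.97-fold lower). NUP205 (7.83 and 8.61) and NUP93 (7.88 and 8.54), partners in the ring, differed by -0.78 and -0.66. NUP188, a large paralogue of NUP205, read 7.66 and 8.24, a difference of -0.57. NUP155 was nearest to 0 at -0.46, and the median of the ring was -0.66. The 5 genes of the ring thus lay on the same side of 0 as 51.3% of all measured genes, between -0.98 and -0.46.

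The Y-shaped complex forms the outer rings of the scaffold and is also found at kinetochores in mitosis. Of its 7 measured members, 6 were lower and 3 of these passed 1.5-fold, against 51.3% and 11.9% of all measured genes. The median was -0.38. NUP85 read 5.68 on the cMyc shRNA array and 6.63 on the control array (1.93-fold lower). NUP43 read 7.25 and 8.18 (1.91-fold lower), and NUP107 read 6.84 and 7.48, a difference of -0.64. The remaining subunits were closer together on the arrays, with differences of -0.38 for NUP37, -0.33 for NUP133 and -0.33 for SEH1L. NUP160 alone of the complex was higher, at 8.27 and 8.08 (0.19). The differences of NUP160, NUP133 and SEH1L were each less than the technical SD of 0.34. The differences of the subunits thus spread over more than 1 log2 unit.

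The channel itself is filled with flexible repeats that form the barrier and bind the receptors. NUP58 read 7.48 on the cMyc shRNA array and 8.29 on the control array (1.75-fold lower). NUP54, its channel partner, read 4.48 and 4.87, a difference of -0.40. Both channel members measured were thus on the lower side.

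On the cytoplasmic face, where exported messenger RNA is remodelled, 3 of 4 members were lower, against 51.3% of all measured genes. NUP88 read 7.83 on the cMyc shRNA array and 8.59 on the control array, a difference of -0.76 (1.69-fold lower). Its binding partner NUP214 differed by -0.44 on the brighter probe set (8.24 and 8.68) and by -0.05 on the other (6.78 and 6.84). The size for NUP214 thus rests on which probe set is read. NUP42, a docking site for the export factor GLE1, differed by -0.25, which is within the technical SD. RANBP2, the giant filament protein that also acts as a SUMO ligase, was higher at 8.19 and 7.88 (0.31), likewise within the technical SD. Its probes can read near-identical members of the RGPD gene family.

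The mobile pair NUP98 and RAE1, which takes part in messenger RNA export, differed by less than the technical SD. RAE1 read 6.88 on the cMyc shRNA array and 7.19 on the control array (-0.31), and NUP98 read 8.99 and 9.11 (-0.13). In the nuclear basket, which faces the chromatin, NUP153 read 9.53 and 10.1 (1.51-fold lower), and its difference was within 1.5-fold after quantile normalization (-0.56) or loess (-0.55). NUP50, a basket protein that helps to release imported cargo, read 5.35 and 5.91, a difference of -0.56. Over all 24 measured pore components the median difference was -0.51. Of them 21 were below 0 and 10 at least 1.5-fold lower, against 51.3% and 11.9% of all measured genes.

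**Figure D2:**
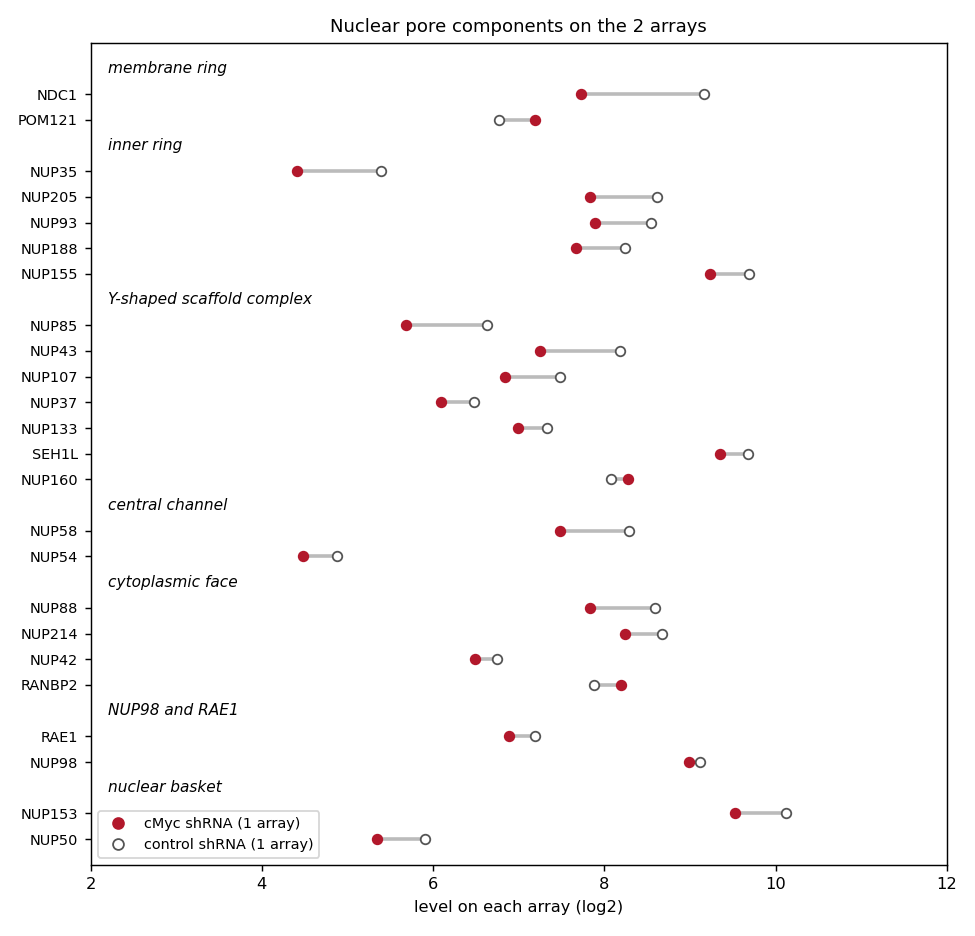
Log2 level of each of the 24 measured pore components on the cMyc shRNA array (filled red) and the control shRNA array (open), 1 array each, grouped by part of the pore and sorted by difference. The filled point lies left of the open one for 21 genes, and right of it for POM121, NUP160 and RANBP2.

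Among the transport receptors, the measured exportins were lower throughout, and XPO1 had no named probe set. Exportins carry cargo out of the nucleus together with Ran in its GTP form. All 5 measured exportins were below 0 and 4 of them at least 1.5-fold lower, against 51.3% and 11.9% of all measured genes. Their median of -0.92 was the lowest of any role with over 2 members. XPO4, which exports the translation factor eIF5A and also carries some import cargo, read 6.76 on the cMyc shRNA array and 7.98 on the control array (2.33-fold lower). CSE1L, the exportin that returns importin alpha to the cytoplasm after each round of import, read 9.66 and 10.6 (1.92-fold lower). XPO6, the exportin of actin with profilin, read 9.18 and 10.1 (1.89-fold lower). XPO7, which has a broad set of cargoes, read 7.84 and 8.62 (1.71-fold lower). XPO5, the exportin of microRNA precursors, was nearest to 0, at 7.99 and 8.43 (-0.45). Exportins of quite different cargoes thus shared a direction on these arrays.

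Receptors of the importin beta type were lower by less. Of 11 measured importins and transportins 10 were below 0, against 51.3% of all measured genes. Among these 10, 3 passed 1.5-fold, against 11.9% of all measured genes. The median was -0.35. KPNB1, importin beta itself, which docks the importin alpha adaptors at the pore, read 10.7 on the cMyc shRNA array and 11.3 on the control array (1.58-fold lower). IPO4, an importer of histones and ribosomal proteins, read 7.58 and 8.21 (1.54-fold lower). IPO5, another importer of ribosomal proteins, read 4.45 and 5.07, a difference of -0.61. Its second probe set, below the level filter, differed by -0.05. TNPO2 read 7.32 and 7.87 (-0.55), while its close relative TNPO1, the receptor of hnRNP proteins, read 9.55 and 9.86 (-0.31). IPO13, which works in both directions, differed by -0.44, IPO9 by -0.35, IPO11 by -0.21, IPO7 by -0.17 and IPO8 by -0.02. TNPO3, which imports serine and arginine rich splicing factors, was the only member above 0, at 9.23 and 9.08 (0.15). The related receptors IPO7 and IPO8 both lay within the technical SD of 0, as did TNPO1, IPO11 and TNPO3.

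The measured importin alpha genes shared no direction, and KPNA2 had no named probe set. These adaptors recognise the classical nuclear localisation signal and hand the cargo to KPNB1. KPNA3 read 8.58 on the cMyc shRNA array and 9.62 on the control array (2.06-fold lower). KPNA4, its closest relative in the family, read 8.80 and 8.80, a difference of 0.01. The subfamily of KPNA1, KPNA5 and KPNA6 was level or higher. KPNA5 read 5.98 and 5.30 (1.60-fold higher) and was the highest of all members. KPNA1 read 7.74 and 7.53 (0.21), and KPNA6 read 8.66 and 8.63 (0.03). Of the 5 measured adaptors 1 was therefore lower and 4 were above 0, with a median of 0.03. Of these 4, KPNA1, KPNA4 and KPNA6 lay within the technical SD of 0, and only KPNA5 was higher by more. KPNA7 was below the level filter, at 3.77 and 3.50.

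The Ran cycle was covered in part. RANBP1, which helps to strip Ran in its GTP form from exportins so that the GTP can be hydrolysed, read 7.63 on the cMyc shRNA array and 8.66 on the control array (2.04-fold lower). Its second probe set read 5.27 and 5.95, a difference of -0.69 in the same direction. RANGAP1, the activator of GTP hydrolysis by Ran, read 8.27 and 8.44 (-0.16). RANBP3, a cofactor in export, read 7.65 and 7.81 (-0.16). RANBP1 thus stood apart from the other measured genes of the cycle, which lay within the technical SD of 0.

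**Figure D3:**
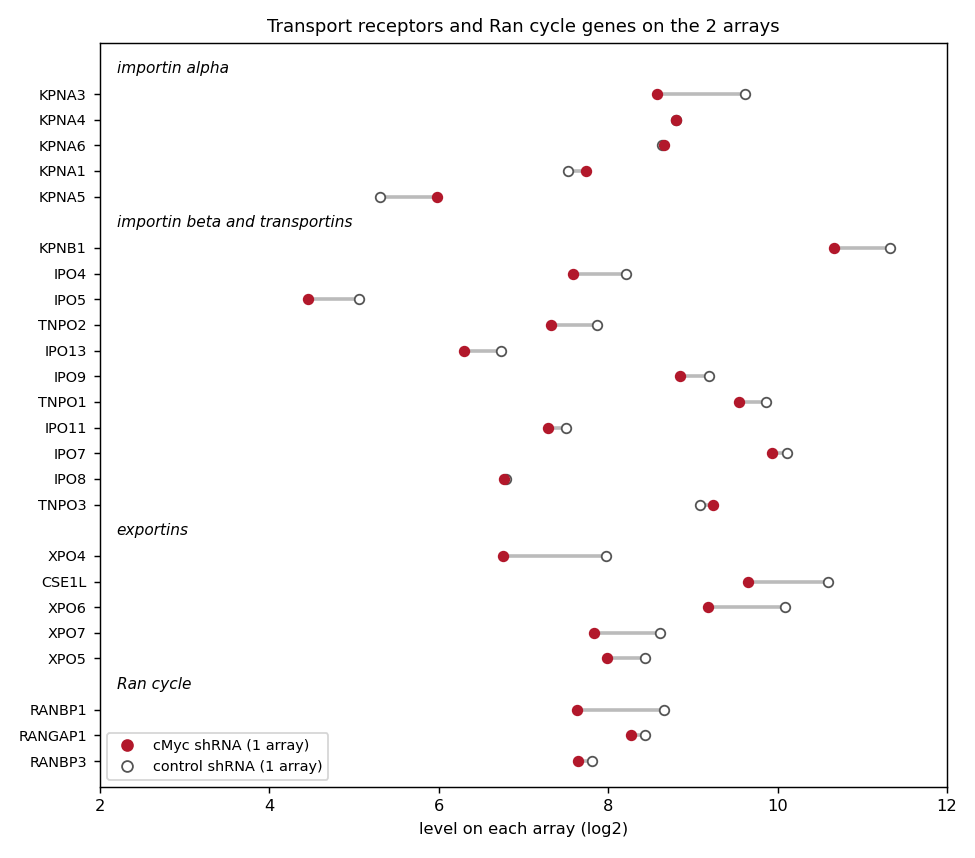
Log2 level of each measured transport receptor and Ran cycle gene on the cMyc shRNA array (filled red) and the control shRNA array (open), 1 array each, grouped by role and sorted by difference. All 5 exportins lie lower on the cMyc shRNA array, whereas 4 of the 5 importin alpha genes lie level or slightly higher, with KPNA5 at 0.68.

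**Figure D4:**
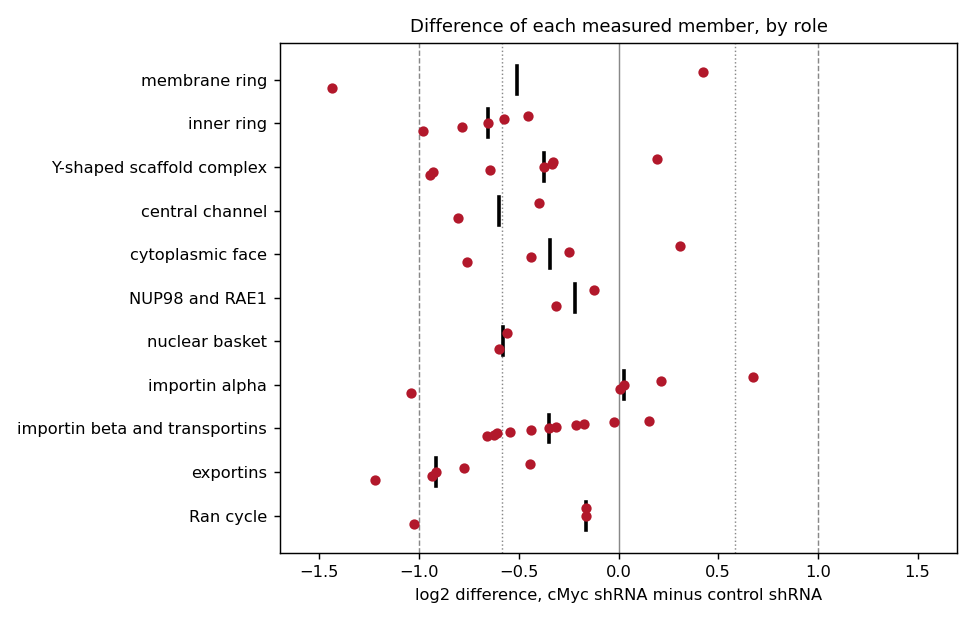
Log2 difference (cMyc shRNA minus control shRNA) of each measured member (points) by role, with the median of the role (black bar); dotted lines mark 1.5-fold and dashed lines 2-fold either way. The medians run from -0.92 for exportins to 0.03 for importin alpha.

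The rule also took 4 genes whose symbols start in NUP but which were given no role in the pore here. NUP50-DT, a noncoding RNA transcribed away from NUP50, read 5.67 on the cMyc shRNA array and 5.71 on the control array (-0.03). The pseudogene NUP210P1 (2.70 and 3.50), NUP62CL (2.31 and 2.69) and NUP210L (2.67 and 2.52) were below the level filter. Nearest to that filter among all members were NUP54 inside it, with a mean of 4.68, and KPNA7 outside it, with 3.64.

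MYC with its partner MAX binds the E-box CACGTG, so the promoters of the members were searched for it. RefSeq promoter windows of build GRCh38.p14, from 250 bases before a gene's start to 50 bases after it, matched 46 of the 54 members, among them 43 of the 49 measured ones. CACGTG, a palindrome that reads the same on both strands, stood in at least 1 window of 7 of these 43 (16.3%), against 961 of the 7900 measured genes with a window (12.2%). Counted by window, it was in 7 of the 55 windows of measured members (12.7%) and in 7.26% of all 35116 windows of the table. The stretches around the E-box before the start site are shown for the 6 members that have one there, since they set the motif beside the difference of its gene. Each is written 5′ to 3′ on the strand of the gene, with the E-box in capitals and 20 bases on either side.
KPNA3: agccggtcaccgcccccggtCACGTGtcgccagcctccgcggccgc
IPO4: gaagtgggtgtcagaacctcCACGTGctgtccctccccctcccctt
NUP188: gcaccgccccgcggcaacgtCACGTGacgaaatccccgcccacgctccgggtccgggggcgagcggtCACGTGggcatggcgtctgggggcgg
NUP50: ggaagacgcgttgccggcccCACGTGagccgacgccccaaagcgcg
TNPO2: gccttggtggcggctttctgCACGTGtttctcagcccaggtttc
IPO7: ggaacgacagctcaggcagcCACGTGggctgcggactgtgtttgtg

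These lie at chr13:49792723-49792768 on the minus strand for KPNA3, chr14:24188820-24188865 on the minus strand for IPO4 and chr9:128947602-128947694 on the plus strand for NUP188. The others lie at chr22:45163731-45163776 on the plus strand for NUP50, chr19:12723933-12723976 on the minus strand for TNPO2 and chr11:9384494-9384539 on the plus strand for IPO7. The stretch of TNPO2 ends at the base before the start site. NUP188 carries the E-box at both -77 and -30, counted from the first base of the motif to the start site. In KPNA3 it lies at -66, in IPO4 at -29, in TNPO2 at -24, in IPO7 at -138 and in NUP50 at -174. TNPO2 and NUP50 each have more than 1 window in the table, and the stretch comes from the window that holds the motif. The E-box of NUP50 is also the one found for NUP50-DT, whose start faces the other way.

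The 7 measured members with CACGTG had a median difference of -0.56 and the 36 without it -0.39. Both values were below those of all measured genes, which were -0.05 with the motif and -0.01 without it. Of the members printed, KPNA3 was at least 2-fold lower and IPO7 differed by -0.17. The windows of NDC1, the lowest member, and of XPO4 did not contain CACGTG, and RANBP1 had no window in the table. Variant E-boxes were searched as CACGCG with its reverse complement CGCGTG and as CATGTG with CACATG, and overlaps between motifs were kept. CACGCG was in 10 of the 43 members (23.3%) and in 21.8% of measured genes, with a median of -0.30 for members with it and -0.44 for those without. CATGTG was in 5 of the 43 (11.6%) and in 9.86% of measured genes, with medians of -0.31 and -0.45. A match is a property of the sequence, and binding was not measured.

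Genes can share a promoter region with a neighbour that is transcribed the other way, and this arrangement was looked up after the members' values had been seen. Among RefSeq start sites, 18 of the 46 members with a window (39.1%) had a start on the opposite strand within 1000 bases upstream, against 20.1% of all genes of the table. Among measured genes the shares were 39.5% of 43 members and 27.2% of 7900 genes. In 5 such pairs both genes were measured. PARPBP, which acts in DNA repair and starts 69 bases from NUP37, read 4.90 on the cMyc shRNA array and 6.47 on the control array, a difference of -1.57 beside -0.38 for NUP37. DOLK, an enzyme of dolichol phosphate synthesis that starts 96 bases from NUP188, read 7.28 and 6.02, a difference of 1.26 beside -0.57 for NUP188. The starts of NUP188 and DOLK enclose the pair of E-boxes printed above, and the readings of these genes pointed in opposite directions. PGAP2 differed by 0.38 beside -0.13 for NUP98, and RPAIN, a factor that imports replication protein A, differed by -0.56 beside -0.76 for NUP88. NUP50-DT differed by -0.03 beside -0.56 for NUP50. Of the 5 pairs 3 were below 0 for both genes and 2 were of opposite sign. Taken singly, 51.3% of all measured genes were below 0, which is a share of genes and not of pairs. The pair of NUP50 and NUP50-DT, both of them members, is among the 3. NUP50-DT lay within the technical SD of 0 and stood at 0.003 after quantile normalization. The share over all such pairs on the array was not computed.

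Other genes of nuclear transport and messenger RNA export were taken from a list that excludes the members. Their shares below 0 and at least 1.5-fold lower lay near those of all measured genes. All 29 members of the list with a named probe set were measured, and 16 (55.2%) were below 0, against 51.3% of all measured genes, with a median of -0.15. At least 1.5-fold lower were 4 (13.8%, against 11.9% of all measured genes). At least 2-fold lower were 2 (6.90%, against 3.997%), and 0 were at least 1.5-fold higher, against 8.77% of all measured genes. ALYREF, an adaptor that loads messenger RNA for export, read 6.32 on the cMyc shRNA array and 7.39 on the control array (2.10-fold lower). NEMP1, a protein of the inner nuclear membrane, read 6.67 and 7.68 (2.02-fold lower), and NXT1, a cofactor of the messenger RNA export receptor, read 6.15 and 6.93 (1.72-fold lower). Highest in the list lay RANBP10 (0.53), RANBP9 (0.53) and GLE1 (0.35), the activator of the export helicase. Whether every listed gene acts in transport was not examined. Messenger RNA export genes were thus found on both sides of 0, and AHCTF1, which seeds pore assembly on chromatin, differed by -0.44.

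Genes of the nuclear envelope and lamina, the structures in which the pores sit, had a median of -0.44 over 13 measured genes. Below 0 were 10 (76.9%, against 51.3% of all measured genes). At least 1.5-fold lower were 6 (46.2%, against 11.9% of all measured genes). Of these, 3 were at least 2-fold lower (23.1% of the 13, against 3.997% of all measured genes). At least 1.5-fold higher was 1, LEMD2, against 8.77% of all measured genes. LMNB1, a B-type lamin, read 5.89 on the cMyc shRNA array and 7.83 on the control array (3.84-fold lower). TMPO, a lamin-binding membrane protein, read 5.26 and 6.98 (3.28-fold lower), and LMNB2, the other B-type lamin, read 7.05 and 8.30 (2.37-fold lower). LMNB1 (-1.94) and TMPO (-1.71) thus lay lower than NDC1 (-1.44), the lowest of the members. At the other end were LEMD2 (0.63), TOR1AIP2 (0.26) and LEMD3 (0.05).

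Genes of mitosis were lower beside the members, by more. All 16 measured genes of a G2/M list were at least 2-fold lower on the cMyc shRNA array, against 3.997% of all measured genes. They ran from KIF20A, TTK and PLK1 at -3.12, -2.91 and -2.75 to AURKB, AURKA and BUB1B at -1.94, -1.74 and -1.27. The median was -2.38. Interferon-stimulated genes lay on the other side, with a median of 3.60. At least 2-fold higher were 16 of 17 measured genes, against 2.01% of all measured genes. In that list IFIT1, IFIT2 and IFIH1 lay highest, at 6.90, 5.09 and 5.07, and IFI44L (2.31), IFIT5 (2.18) and IRF7 (-0.02) lowest. On the control array 7 of the 17, among them IFIT1 (2.78), IFIT2 (3.63), IFIH1 (3.45) and IFI44L (2.63), read below the level filter, so they passed it through the cMyc shRNA array and the sizes and order of their differences are uncertain. Both lists were chosen with earlier results of these data known, so their counts are descriptions only. The part of either list in the differences of the transport genes was not tested.

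**Figure D5:**
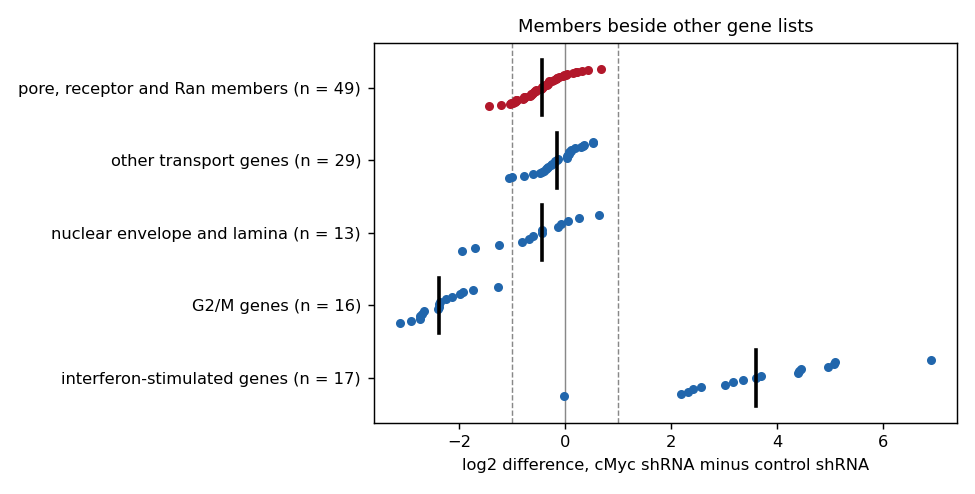
Log2 difference (cMyc shRNA minus control shRNA) of each measured gene (points) in the members and in 4 other lists, with medians as black bars and dashed lines at 2-fold either way. The members centre on -0.44, between the other transport genes (-0.15) and the G2/M genes (-2.38), and beside the envelope and lamina genes (-0.44).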

How the data were processed

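The authors deposited 1 table of log2 levels for 53617 probe sets on 2 arrays, between 1.41 and 13.9. The values were made with Affymetrix Expression Console, per the submitters' processing notes. The sources used here do not give its version or its normalization. Folds assume base 2, which was inferred from the range of the values. Depth has no counterpart on arrays, no detection calls were available, and the number of arrays limits the precision. Gene symbols came from GEO's platform annotation (16098 probe sets with 1 symbol). Differences were taken on the deposited scale, with 1 probe set for each gene and a level filter at the median of all probe sets.

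With 1 array for each condition no test was run. The counting by size was checked on simulated data with known differences, which says nothing of the precision of these 2 arrays. The members, roles and lists were chosen with earlier results of these data known. Named in full were members at least 1.5-fold apart, the extremes of each role, and the 3 lowest and 3 highest of the transport, envelope, G2/M and interferon lists; PARPBP, DOLK, PGAP2, RPAIN and others were named after their values were seen. Other scalings (centring, quantile, loess), level filters, probe set rules, and means in place of medians were tried. Python 3.11.15, numpy 2.4.6, pandas 2.3.3, statsmodels 0.14.6 and matplotlib 3.10.9 were used.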

Additional observations from a re-analysis of the deposited data

How the results depend on the processing

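No paired analysis was possible because each condition has 1 array, and for the same reason no replicate could be left out. The count of members at least 2-fold lower was 4 as deposited, 2 after quantile normalization and 3 after loess or with the mean over probe sets. After quantile normalization KPNA3 and RANBP1 (both -0.99) were just within 2-fold, and after loess they were again within it (-0.998 and -0.99) while NUP35 (-1.01) was past it. RANBP1 had -0.86 with the mean over its probe sets. NUP153 was within 1.5-fold after quantile normalization (-0.56) and loess (-0.55), and IPO5 with the mean over its probe sets (-0.33). The median of the membrane ring was 0.13 with no level filter, since NUP210 then joins NDC1 and POM121. The member median stayed between -0.45 and -0.40 under 8 alternatives, and the count at least 1.5-fold lower between 17 and 20 under 6. All 189 values of the single members followed under 6 alternatives lay within the technical SD of 0.34 of the deposited value. Much of that was fixed in advance. Level filters leave a difference as it is, centring moves all genes alike, and the probe set mean moves only genes with several probe sets. Only quantile normalization and loess could change the other members by unequal amounts. The values cover members at least 1.5-fold apart and the extremes of each role, and NUP214 was not among them.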
